A study of Mus musculus with 10 samples.

Results

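Gfap, Serpina3n and Lcn2 are 3 genes known from reactive astrocytes, and their transcripts were measured in the hypothalamus of young and old mice. They were chosen by name, each as the probe set with the highest mean over the 10 arrays. All 3 were found, each with 1 probe set, among 19505 measured genes. The study hybridised hypothalamic RNA from males of the inbred strain C57BL/6J to Clariom S Mouse arrays, where a group of short probes (a probe set) reports on each transcript. It compared 5 arrays at 24 weeks of age (Young 1 to Young 5) with 5 at 138 weeks (Old 1 to Old 5). All mice were on the same light cycle with free access to feed, and the labels name no other treatment or allele. They do not say that each array was a separate animal, so the spread between arrays may in part be technical. Because the 3 genes were proposed with their age difference already known, that difference is given below as a description, and no test of it is read.

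Astrocytes are glial cells that buffer potassium, take up glutamate and support the blood-brain barrier. After injury, in inflammation and in ageing they pass into reactive states, with more intermediate filament and a changed set of secreted proteins. Gfap encodes the main intermediate filament protein of astrocytes. Serpina3n encodes a secreted inhibitor of serine proteases, among them granzyme B and cathepsin G. Lcn2 encodes lipocalin 2, a secreted protein that binds iron-carrying siderophores and is also made by neutrophils, liver and endothelium. Cytokine signalling through STAT3 or NF-kB is a known route to genes of this state.

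The sequence just upstream of each start site is shown because these genes are described together and this is where shared elements would first be sought. All 3 matched the RefSeq promoter table (build GRCm38.p6). The stretches are chr11:102897201-102897450 on the minus strand for Gfap, chr12:104406458-104406645 on the plus strand for Serpina3n, and chr2:32387740-32387989 on the minus strand for Lcn2. That of Serpina3n ends before the earliest start annotated for the gene and is 188 bases long, against 250 for the others. Each is written 5′ to 3′, and capitals mark matches on either strand to TTCNNNNGAA, a STAT element with a spacer of 4 bases, and to TTNNGNAA, a loose C/EBP element.
Gfap: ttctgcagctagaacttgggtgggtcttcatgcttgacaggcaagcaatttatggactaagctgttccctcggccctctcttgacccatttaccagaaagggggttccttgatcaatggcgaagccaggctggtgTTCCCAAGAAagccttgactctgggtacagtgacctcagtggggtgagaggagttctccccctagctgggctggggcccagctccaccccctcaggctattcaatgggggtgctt
Serpina3n: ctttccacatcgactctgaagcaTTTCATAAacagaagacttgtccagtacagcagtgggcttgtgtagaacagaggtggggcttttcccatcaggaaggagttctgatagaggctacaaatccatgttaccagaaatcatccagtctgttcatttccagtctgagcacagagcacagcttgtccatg
Lcn2: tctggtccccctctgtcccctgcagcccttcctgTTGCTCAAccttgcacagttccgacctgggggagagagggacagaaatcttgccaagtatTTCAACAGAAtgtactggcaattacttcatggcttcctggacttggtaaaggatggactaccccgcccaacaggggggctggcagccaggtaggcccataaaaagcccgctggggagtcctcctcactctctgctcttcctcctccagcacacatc

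Gfap and Lcn2 each held 1 match to TTCNNNNGAA, TTCCCAAGAA and TTCAACAGAA, which begin 115 and 156 bases before the start. Of 32851 promoter windows of 250 bases, 5.85% held this element. Serpina3n held none in 250 bases. The element with a spacer of 3 bases, TTCNNNGAA, was found in none of the 3 and in 7.02% of all windows. TTNNGNAA matched once in Lcn2 (TTGCTCAA) and 2 times in the 250 bases of Serpina3n, of which TTTCATAA is in the printed stretch; 36.8% of windows held it. A short element of the glucocorticoid receptor, TGTNCT, matched 4 times in Serpina3n, 2 times in Lcn2 and 0 times in Gfap, and 44.7% of windows held it. Of the Lcn2 matches to it, 1 follows directly after its TTCNNNNGAA match, and no matches of different elements overlapped. The NF-kB element, the AP-1 element TGANTCA, the TATA box TATAAA and the nuclear factor I element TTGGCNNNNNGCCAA were in none of the 3 stretches, and in 7.25%, 6.75%, 12.4% and 0.0365% of all windows. A match is a run of letters, not a bound site.

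For each probe set the deposited table gives 1 value on each array, read as log2 signal from their range (5.00 to 12.97), since the base is not named. Of the 19505 genes, 19118 (98.0%) had the same value on all arrays to within a standard deviation (SD) of about 1e-05 log2; these are called collapsed, and whether age changed them cannot be seen. The 276 genes with an SD of at least 0.01 log2 are called varying. Gfap, Serpina3n and Lcn2 were all among them. How far differences of varying genes were also shrunk before deposit is unknown, so each fold describes the deposited values. Single arrays stood apart for transcripts of other tissues. Young 5 had the choroid plexus transcript Ttr at 12.44 log2, where the others had 6.90 to 7.97, and Young 3 had the liver transcripts Alb at 6.87 and Mup2 at 7.35, where the others reached 6.34 and 6.39. In tissue RNA, more cells of a type and more RNA per cell cannot be told apart.

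Gfap signal was 8.90, 8.83, 8.90, 8.88 and 9.13 log2 in Young 1 to Young 5, and 9.33, 9.34, 9.43, 9.52 and 9.25 in Old 1 to Old 5. All 5 Old arrays lay above all 5 Young arrays. The means were 8.93 ± 0.118 and 9.37 ± 0.101 log2 (SD, n = 5 each), a difference of 0.44 (SE 0.0694), or 1.36-fold. Young 5, the array with high Ttr, was the highest Young array. Without it the Young arrays spanned only 8.83 to 8.90, and the difference was 0.49 (SE 0.0536).

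Serpina3n signal was 8.02, 7.73, 8.02, 8.15 and 8.01 log2 in Young 1 to Young 5, and 8.86, 8.92, 8.64, 8.88 and 8.68 in Old 1 to Old 5. Here too the ages did not overlap, and the gap between the highest Young and the lowest Old array was wider than the whole range of either age. The means were 7.99 ± 0.152 and 8.80 ± 0.125 log2 (SD, n = 5 each), a difference of 0.81 (SE 0.088), or 1.75-fold. Young 2 was the lowest array; without it the difference was 0.75 (SE 0.0694).

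Lcn2 signal was 5.83, 5.78, 7.34, 5.76 and 5.88 log2 in Young 1 to Young 5, and 6.89, 7.95, 6.22, 6.42 and 6.14 in Old 1 to Old 5. The ages overlapped through 1 array: Young 3 lay above every Old array except Old 2, while the other Young arrays lay below every Old array. The means were 6.12 ± 0.686 and 6.72 ± 0.744 log2 (SD, n = 5 each), a difference of 0.60 (SE 0.453), or 1.52-fold, so the difference was smaller than the SD within either age. It was 0.91 (SE 0.378) without Young 3 and 0.30 (SE 0.378) without Old 2. Without both, it was 0.60 (SE 0.17), and the 4 remaining Old arrays (6.14 to 6.89) lay above the 4 Young arrays (5.76 to 5.88). Both were left out after they were seen to be the highest of their ages, so the smaller SE and the separation follow from that choice.

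**Figure D1:**
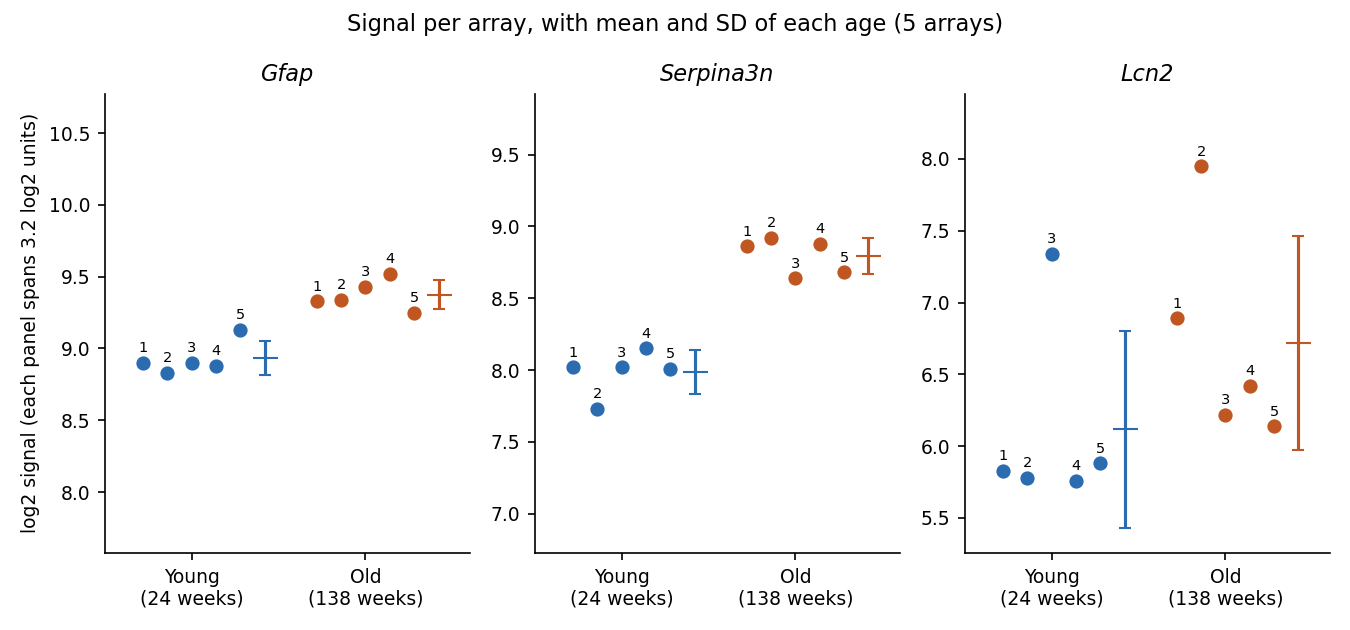
Signal in log2 units (vertical axis) of Gfap, Serpina3n and Lcn2 on each array (points, numbered by replicate) at 24 weeks (blue) and 138 weeks (orange), with the mean and SD of 5 arrays beside them; each panel covers the same span. The ages separate for Gfap and Serpina3n, while for Lcn2 the array Young 3 (7.34) lies among the Old values and Old 2 (7.95) is the highest.

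Of the 3 genes, 2 thus had ages that did not overlap. Among all genes 0.836% were higher in Old without overlap, and among varying genes 20.7%; since the genes were chosen with this contrast known, nothing is read from the count. By the Old minus Young difference among the 276 varying genes, Serpina3n had rank 6, Lcn2 rank 13 and Gfap rank 23. Their spread within an age ranked otherwise. The within-age SD was 0.715 log2 for Lcn2, rank 4 of 276 from the largest, 0.139 for Serpina3n (rank 77) and 0.11 for Gfap (rank 107), and the median varying gene had 0.0935. Age accounted for 91.3% of the variance over the 10 arrays in Serpina3n, 83.6% in Gfap and 18.2% in Lcn2, against a median of 37.7% over varying genes. The ranks by difference and these shares are descriptions too, since the genes were chosen with the contrast known.

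**Figure D2:**
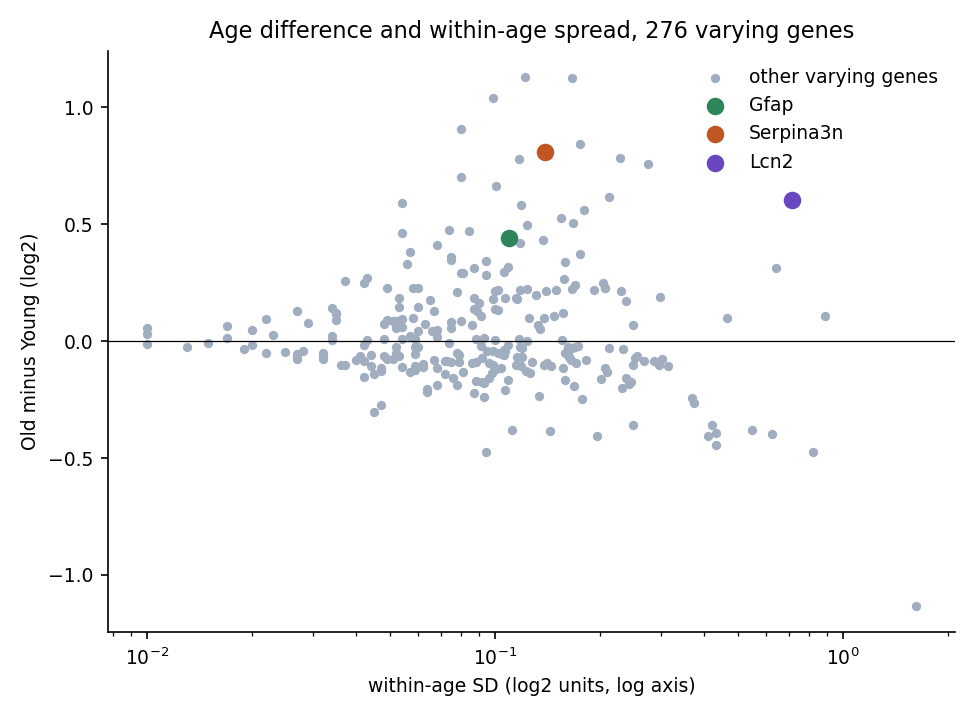
Old minus Young difference in log2 units (vertical axis) against the within-age SD in log2 units (horizontal log axis) for the 276 varying genes (grey), with Gfap, Serpina3n and Lcn2 coloured. Gfap (0.44) and Serpina3n (0.81) have an SD near that of many other genes, whereas Lcn2 (0.60) lies far to the right, at 0.715.

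The 3 genes were then compared over single arrays. Because the ages form separate clusters for Gfap and Serpina3n, each value of the 3 genes was taken as its deviation from the mean of its own age. The 3 genes did not peak in the same Young array: Gfap was highest in Young 5 (0.20 above its age mean), Serpina3n in Young 4 (0.16) and Lcn2 in Young 3 (1.22). Among Old arrays Gfap was highest in Old 4 (0.14), and both secreted products were highest in Old 2 (Serpina3n 0.12, Lcn2 1.22), where Gfap was at -0.03. Young 2 was the lowest Young array for Gfap (-0.10) and Serpina3n (-0.25). Old 5 was the lowest Old array for Gfap (-0.12) and Lcn2 (-0.58), and Old 3 for Serpina3n (-0.15).

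**Figure D3:**
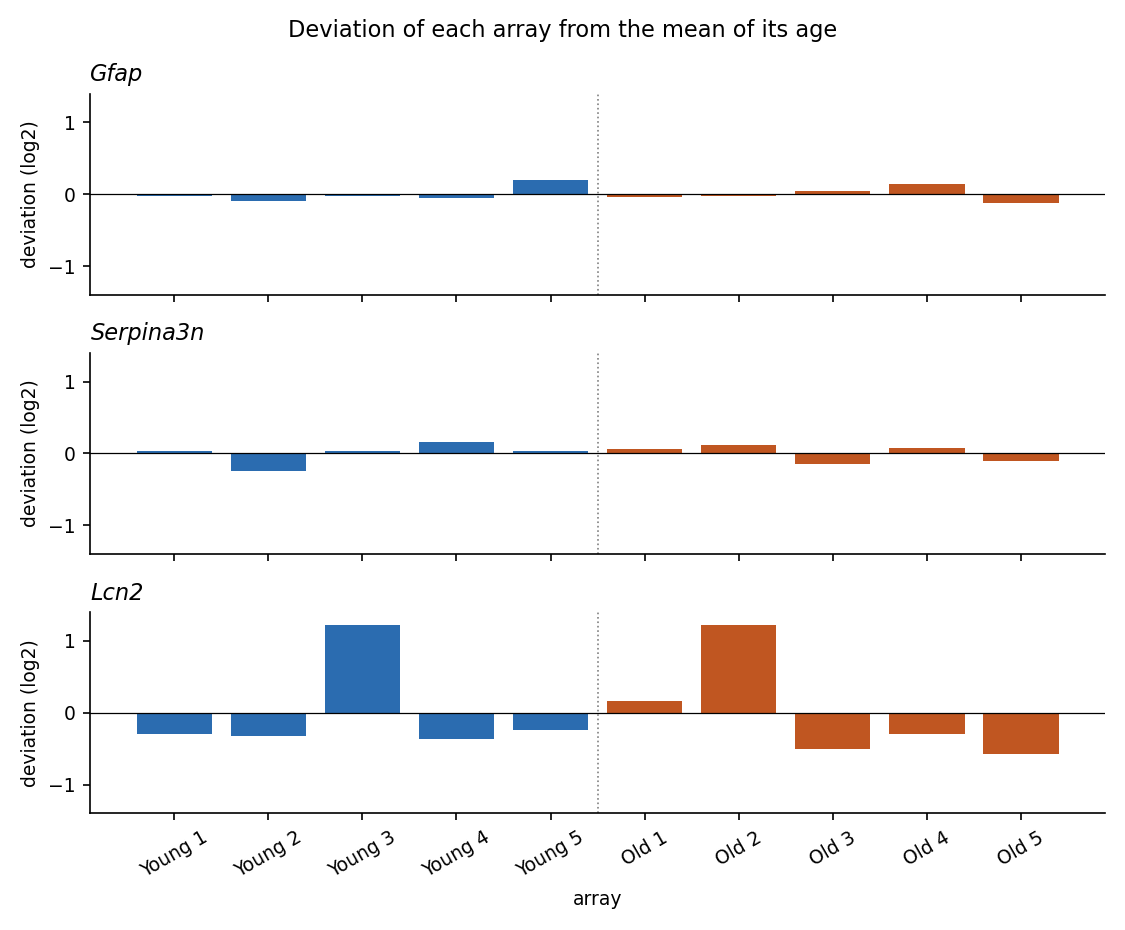
Deviation of each array (horizontal axis) from the mean of its age in log2 units (vertical axis, the same in each panel), with Young arrays in blue and Old arrays in orange. Young 3 and Old 2 stand 1.22 above their age means for Lcn2, and no array of Gfap or Serpina3n departs by more than 0.25.

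No pair of the 3 was shown to covary within ages. Over the 10 deviations, Gfap and Serpina3n had Pearson's r = 0.27 (exact 2-sided permutation of arrays within each age, p = 0.462, adjusted over 3 pairs 0.694) and Spearman's rho = 0.07 (exact p = 0.87, adjusted 0.87); r was 0.21 without Old 4 and Young 5, the arrays farthest from the median of Gfap. Serpina3n and Lcn2 had r = 0.42 (exact permutation p = 0.195, adjusted 0.584) and rho = 0.41 (exact p = 0.254, adjusted 0.501). For this pair r was 0.33 without Old 3 and Young 2, the arrays farthest from the median of Serpina3n. It was 0.43 without Young 3 and Old 2, those farthest from the median of Lcn2. Gfap and Lcn2 had r = -0.11 (exact permutation p = 0.795, adjusted 0.795) but rho = 0.36 (exact p = 0.334, adjusted 0.501), and r was 0.17 without Old 4 and Young 5. The sign of this last relation thus changed with the measure and with those arrays left out, and 10 arrays leave room for correlations of moderate size in each pair.

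Each gene had other varying genes that followed its deviations more closely than the other 2 did. Ranked by Pearson's r over the 10 deviations among 275 varying genes, Serpina3n was at rank 97 and Lcn2 at rank 218 for Gfap. For Serpina3n, Lcn2 was at rank 38 and Gfap at 72. For Lcn2, Serpina3n was at rank 57 and Gfap at 162. The 5 genes most like each are given next as a description without a p, since they are the top of a long ranking on 10 arrays. All genes on an array also share its tissue sample and scaling.

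The genes most like Lcn2 were Tmem252, a transmembrane protein (r = 0.96, rho = 0.88), Slc2a1, the glucose transporter of the blood-brain barrier (r = 0.88, rho = 0.76), Mt2 (r = 0.82, rho = 0.88) and Mt1 (r = 0.77, rho = 0.85), metal-binding metallothioneins, and Mal, a membrane protein of myelinating cells (r = 0.79, rho = 0.83). Without Young 3 and Old 2, r was 0.78 for Tmem252, 0.42 for Slc2a1, 0.69 for Mt2, 0.86 for Mt1 and 0.89 for Mal, so for all but Slc2a1 the likeness did not rest on those arrays alone. Tmem252 was at 7.13 log2 in Young 3 and 7.34 in Old 2, where the other Young arrays had 6.59 to 6.79 and the other Old arrays 6.83 to 7.07. Mt2 was at 11.49 in Young 3 and 11.56 in Old 2, the highest array of each age, with a lowest value of 11.14 in Young and 11.10 in Old. Neither passed between ages (limma over all genes, adjusted p = 0.806 and 0.993), and the age difference of Mt2 was 0.01 log2 (SE 0.0987).

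Other transcripts were set beside the high Lcn2 of Young 3 and Old 2, with markers of cells that also make it. The liver transcripts were raised in Young 3 but not in Old 2, where Alb was at 6.18 and Mup2 at 6.06 log2, inside the range of the other arrays. The mean of these 2 varying liver markers of 5 measured was 5.93 to 7.11 in Young and 5.94 to 6.15 in Old. All 9 neutrophil markers were collapsed, among them S100a8 at 5.47, Ngp at 5.64 and Ltf at 5.49, so they cannot show whether neutrophils differed. Of 5 endothelial markers only Ly6c1 varied; it was highest in Young 3 (9.19) and in Old 2 (9.51) of their ages, over a range of 8.96 to 9.19 in Young and 8.96 to 9.51 in Old. Slc6a3, the dopamine transporter of midbrain and hypothalamic neurons, singled out after its values were seen, was at 8.30, 8.42, 8.51, 7.04 and 6.91 log2 in Young 1 to Young 5 and at 8.68, 8.90, 8.26, 7.22 and 6.65 in Old 1 to Old 5. Young 3 and Old 2 were thus the highest of their ages, but did not stand apart as they did for Lcn2. The wider split in Slc6a3 followed the array number: Young 4, Young 5, Old 4 and Old 5 had 6.65 to 7.22, and the others 8.26 to 8.90. The part of these transcripts in the Lcn2 values was not tested.

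For Serpina3n the most alike were Avp, which encodes vasopressin (r = 0.81, rho = 0.79), Tecr, an enzyme of very-long-chain fatty acid synthesis (0.75, 0.70), Mpeg1, a pore-forming protein of macrophages and microglia (0.72, 0.48), Gpx3, an extracellular glutathione peroxidase (0.70, 0.66), and Ntsr2, a neurotensin receptor of astrocytes (0.69, 0.68). Young 2 and Young 4 were the arrays in which Serpina3n departed most from its age means, rather than from its median. Without them r was 0.75 for Avp, 0.74 for Mpeg1, 0.58 for Ntsr2, 0.47 for Gpx3 and 0.41 for Tecr. Avp ran from 8.82 (Young 2) to 9.28 (Young 4) in Young and from 9.38 (Old 5) to 9.96 (Old 2) in Old, so that it was lowest and highest of the Young in the same arrays as Serpina3n, and highest of the Old in the same one. The age differences of these genes went both ways. Avp was higher in Old by 0.62 (SE 0.134, limma adjusted p = 0.182) without overlap, Mpeg1 rose by 0.70 (SE 0.0504, limma adjusted p = 0.000463) and Ntsr2 fell by 0.30 (SE 0.0287, limma adjusted p = 0.00241).

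For Gfap the most alike were Pon3, a paraoxonase (r = 0.83, rho = 0.56), Slc31a1, a copper importer (0.80, 0.52), Calr, the chaperone calreticulin of the endoplasmic reticulum (0.80, 0.92), Kl, which encodes klotho (0.78, 0.56), and Vip, a neuropeptide (0.77, 0.71). Pon3 (7.33), Slc31a1 (7.36) and Kl (8.50), a choroid plexus marker, were highest in Young 5, the array with Ttr at 12.44. Without Young 5 and Old 4, r was 0.26 for Pon3, 0.35 for Slc31a1, 0.12 for Kl and 0.35 for Vip, but 0.79 for Calr. Apart from Calr, the likeness to Gfap thus rested on those arrays. The part of choroid plexus RNA in the Gfap value of Young 5 was not tested. The age difference of Gfap was 0.44 (SE 0.0694) with that array and 0.49 (SE 0.0536) without it.

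**Figure D4:**
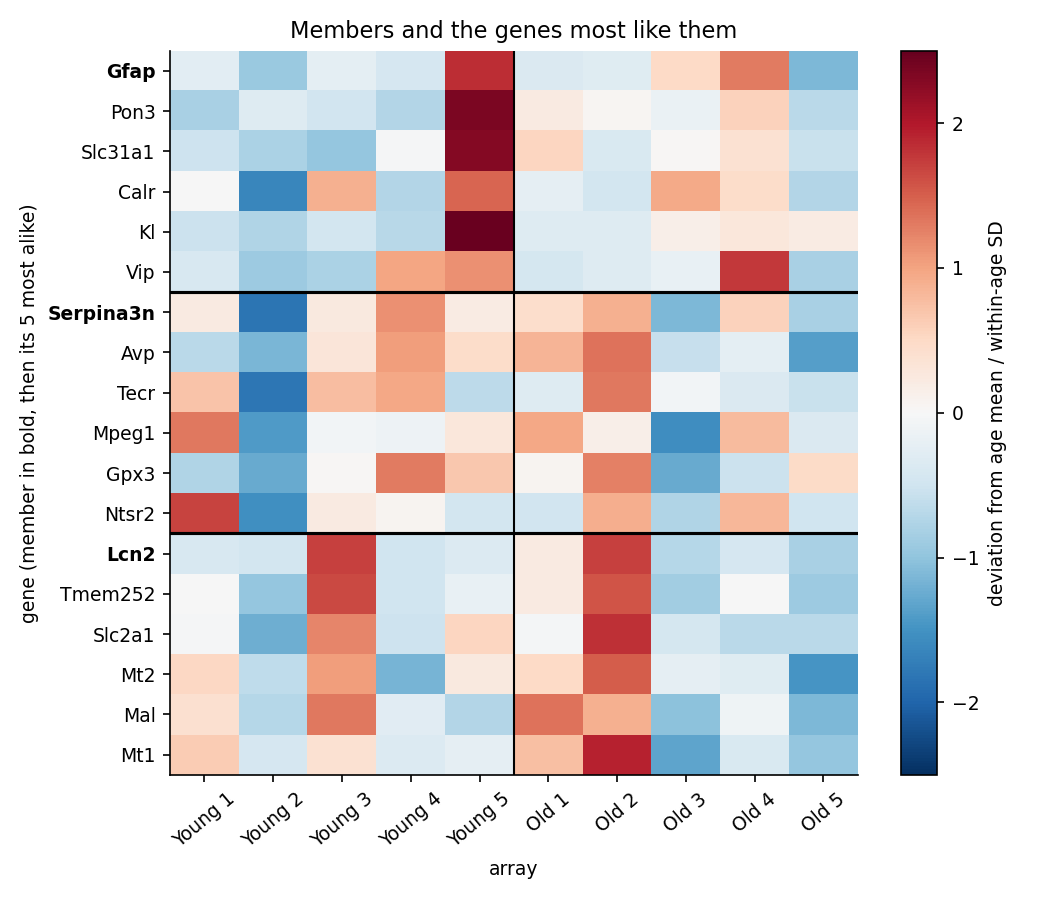
Deviation from the age mean divided by the within-age SD (colour, no unit) on each array (horizontal axis) for Gfap, Serpina3n and Lcn2 (bold) and, below each, its 5 most alike varying genes. Young 5 stands out in the upper block, Young 2 is low in the middle block, and Young 3 and Old 2 are high through most of the lower block.

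The other genes of reactive astrocytes were then counted in the fit of limma to all 19505 genes, with p adjusted by Benjamini and Hochberg's method and called under 0.05. Of all genes 0.190% rose and 0.0308% fell (37 and 6), and 2 of these calls were collapsed genes. Rescaling the arrays turned this split, with 546 higher and 7633 lower after quantile normalization and 92 and 19273 after median centring, but 8025 and 19118 of those calls were collapsed genes. Lists drawn from published pan-reactive, A1 (neuroinflammatory) and A2 (ischaemic) astrocyte genes held 32 measured members besides Gfap, Serpina3n and Lcn2. Of these 1 rose, 0 fell and 31 did not pass; 4 had an unadjusted p under 0.05, as had 1331 of all 19505 genes (6.82%). The median difference over the 32 was -2.03e-06 log2, and -8.74e-08 over all genes. This says little, since 30 of the 32 were collapsed, among them Vim (7.65 log2), the filament partner of Gfap, Cd44 (6.39), the hyaluronan receptor, and Osmr (6.43), the oncostatin M receptor. Gfap, Serpina3n and Lcn2 were the only varying genes of the 13 on the pan-reactive list, and 0 of 12 varied on the A2 list.

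The 2 varying genes left were on the A1 list. H2-D1, which encodes a heavy chain of MHC class I, was at 7.04 to 7.15 log2 in Young and 7.49 to 7.65 in Old, and rose by 0.46 (SE 0.0341, limma adjusted p = 0.000495). Fbln5, an elastic fibre protein, was at 6.87 to 7.44 in Young and 7.57 to 8.37 in Old, without overlap. It was higher by 0.76 (SE 0.175), with a limma adjusted p of 0.216 over all genes. In the limma fit over the 276 varying genes alone, of which 24.6% rose and 11.2% fell, its adjusted p was 0.00481. The SD that defines varying genes includes the age difference, so a p over varying genes alone is given as a description. Nothing is read from it.

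The next list holds genes by which unreactive astrocytes buffer potassium, clear glutamate and couple to each other. Of 17 measured, 0 rose, 3 fell and 14 did not pass, where 0.190% of all genes rose and 0.0308% fell. Of the 17, 4 had an unadjusted p under 0.05 (6.82% of all genes) and 6 varied (1.42% of all genes). Kcnj10, the potassium channel Kir4.1, was at 9.88 to 9.94 log2 in Young and 9.19 to 9.51 in Old, and fell by 0.48 (SE 0.0596, limma adjusted p = 0.0104). Ntsr2 is described above. The third, Slc7a10, an amino acid exchanger, differed by only -0.000449 log2 and did not vary. Gja1, the gap junction protein connexin 43, was lower by a difference of -0.14 (SE 0.0458, limma adjusted p = 0.525). Over varying genes alone, where 11.2% of genes fell, its limma adjusted p was 0.0353, a description as above. Atp1b2 was lower by a difference of -0.12 (SE 0.0659, limma adjusted p = 0.798). Slc1a2, the main glutamate transporter, was at 10.67 to 10.74 in Young and 10.65 to 10.76 in Old, and Aldoc, an astrocyte aldolase, was higher by 0.06 (SE 0.0339, limma adjusted p = 0.794). Without Young 3 and Young 5, which hold liver and choroid plexus transcripts, Ntsr2 alone passed of this list (limma adjusted p = 0.0418; Kcnj10 0.168), as it did without Young 3 and Old 2 (0.0285; Kcnj10 0.102).

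Of 6 measured astrocyte markers (Aqp4, Slc1a2, Slc1a3, Aldh1l1, Gja1 and Gjb6) 4 were collapsed, and 0 rose and 0 fell with limma over all genes, with 1 at an unadjusted p under 0.05 (6.82% of all genes). The mean of the 2 that varied was 10.42 to 10.46 log2 in Young and 10.28 to 10.44 in Old. Of 8 measured microglial markers 2 varied, and Ctss, cathepsin S, rose by 0.91 (SE 0.0505, limma adjusted p = 0.000172). The mean of Ctss and C1qa was 7.95 to 8.06 in Young and 8.50 to 8.68 in Old, and the defining markers P2ry12 (8.29), Tmem119 (7.31) and Cx3cr1 (6.99) were collapsed. The part of microglia in the values of the 3 genes was not tested.

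**Figure D5:**
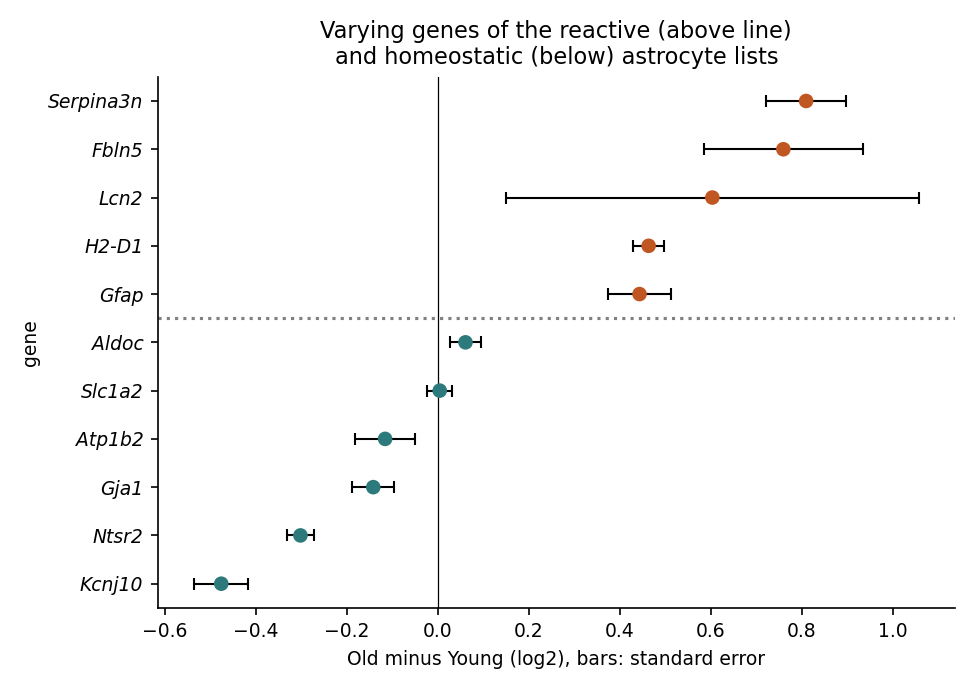
Old minus Young difference in log2 units (horizontal axis; bars are standard errors, 5 arrays per age) of the varying genes on the joined reactive lists (orange) and on the homeostatic list (green). The reactive genes lie from 0.44 to 0.81, with the widest bar for Lcn2 (SE 0.453), and the homeostatic genes from -0.48 to 0.06.

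The families and pathways around the 3 genes were nearly all collapsed. Gfap was the only varying gene of 9 intermediate filaments; Vim, Nes (6.38 log2), Synm (6.23), Des (5.49) and the neuronal filaments did not vary. Serpina3n was the only varying gene of the 6 measured members of the mouse Serpina3 cluster, whose genes are alike in sequence and can share probe signal. The other 5 had levels from 5.42 (Serpina3b) to 6.74 log2 (Serpina3i). Its target proteases Gzmb (5.89) and Ctsg (5.43) did not vary, and neither did the Lcn2 receptors Slc22a17 (11.76) and Lrp2 (6.39) nor Mc4r (6.08), the melanocortin receptor through which lipocalin 2 can act on feeding.

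Upstream, 28 ligands, receptors and signalling genes were measured. Of these 0 rose and 0 fell with limma over all genes, with 1 at an unadjusted p under 0.05 (6.82% of all genes), and 27 were collapsed, among them Il6 (5.23 log2), Il1b (5.97), Tnf (5.60), Stat3 (7.98), Socs3 (6.66), Rela (7.87) and Cebpd (6.42). The exception was C1qa, a chain of the complement protein that with Il1a and Tnf can drive astrocytes to the A1 state. It was at 7.76 to 7.92 in Young and 8.01 to 8.32 in Old, higher by 0.34 (SE 0.0595). Its limma adjusted p was 0.0719 over all genes and, as a description, 0.00146 over varying genes alone, of which 24.6% rose.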

How the data were processed

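The hypothalamic RNA of 10 samples was labelled with biotin from 100 ng of total RNA and hybridised to 1-colour arrays, per the labels' protocols. The authors deposited 1 value per probe set and array, read here as log2 signal. Their steps from scanned probes to these values were not given in the sources used here; medians of single arrays were 6.778 to 6.783. Of 22206 probe sets, 19572 have 1 gene symbol in the platform's annotation and 2634 have none; all 19572 gene identifiers matched RefSeq (GRCm38.p6). The brightest probe set per gene was kept.

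Ages were compared with limma 3.58.1 (R 4.3.3; lmFit and eBayes, 2-sided, Benjamini-Hochberg over all genes), after the procedure was tested on simulated data. The fit holds Gfap, Serpina3n and Lcn2, but no call of theirs is read. Each SE is the ordinary one from the pooled within-age SD. Correlations used deviations from age means and 14400 permutations within ages. The 3 genes, the lists and the tests were chosen with earlier results of these data known. Named genes are those of each list past the threshold or, failing that, varying (at most 6 per list), and the 5 varying genes most like each of the 3. Alternatives covered scaling, filters, the prior, the threshold, probe set means, a replicate block and left-out arrays. The number of arrays limits the precision.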

Additional observations from a re-analysis of the deposited data

Results flagged for a closer look

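In each age, the highest or lowest of the 5 arrays was compared with its neighbour for the 25 named varying genes. In 10 of 50 groups the gap was above 0.71 of the group's range, where chance gives about 1 in 20; the likeness genes were picked to follow such arrays. Lcn2 was high in Young 3 (7.34, nearest 5.88 log2), and Gfap in Young 5 (9.13, nearest 8.90). Young 5 was also high for Pon3 (7.33) and Kl (8.50). Old 2 was high for Slc2a1 (10.44), Aldoc (11.86) and Tecr (11.29), and Old 4 for Vip (6.75). Kcnj10 was low in Old 1 (9.19), and Gja1 in Young 3 (10.10).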

How the results depend on the processing

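The differences of Gfap (0.41 to 0.49), Serpina3n (0.75 to 0.85) and Lcn2 (0.30 to 0.91; lowest without Old 2, highest without Young 3) stayed above 0 when single arrays were left out, and under every scaling, probe set rule, block and pair of arrays tried. The probe set rule and the block could not change them, since each gene has 1 probe set and each number occurs once per age. Scaling could hardly do so, with array medians of 6.778 to 6.783. The genes were chosen with this difference known, so its stability is no support for it. Over all genes 43 passed (37 higher, 6 lower, and 29 to 42 without single arrays). Among them were 3 homeostatic genes (2 to 3), of which Slc7a10 did not vary, and 3 of the joined reactive lists (2 to 3). Of these last, 1 (H2-D1) is not among Gfap, Serpina3n and Lcn2, and nothing is read from the others. With quantile normalization 8179 genes, 8 homeostatic and 16 reactive passed, and with median centring 19365, 14 and 34. There 6.68% and 0.475% of all calls were higher, against 86.0% as deposited, and collapsed genes, which differed by at most 0.0203 and 0.00247 log2, made up 8025 and 19118 of the calls. As deposited, 2 calls were collapsed genes. Without Young 3 and Young 5, 24 genes and 1 homeostatic gene passed; without Young 3 and Old 2, chosen after seeing the data, 21, 1 and 1. The varying genes alone, picked by an SD that includes the age difference, gave 99 calls. A threshold of 0.01 gave 23 and 1 homeostatic gene. The within-age r was 0.01 to 0.40 (Gfap and Serpina3n), -0.30 to -0.02 (Gfap and Lcn2) and 0.27 to 0.59 (Serpina3n and Lcn2) without single arrays. For Gfap and Lcn2 it was 0.13 without Young 3 and Old 2, and rho was 0.36. The replicate number as a block gave 11, 1 and 1 calls, with a limma adjusted p of 0.048 for H2-D1, 0.145 for Ntsr2 and 0.245 for Kcnj10. The homeostatic call was Slc7a10 (limma adjusted p = 0.0253), which differed by only -0.000449 log2 and did not vary. Same-numbered arrays did not deviate together over the varying genes (correlations from -0.22 to 0.28; 1 of 5 Young arrays correlated best with its own number). These correlations compare single numbers, so they cannot show a split that spans several. Slc6a3, singled out above, was lower in Young 4, Young 5, Old 4 and Old 5 (6.65 to 7.22 log2) than in the other arrays (8.26 to 8.90). What the arrays of a number share was not tested.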
